A study of Drosophila melanogaster with 2 samples.

Results

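Distal intronic binding regions of Spalt major (Salm) in Drosophila melanogaster embryos were selected from a thresholded list of chromatin immunoprecipitation (ChIP-seq) peaks by their place in the annotation. A region was included when its summit, the peak's highest point as deposited, lay over 2 kb from the transcription start site (TSS) nearest to it, inside an annotated transcript and in no annotated exon. The rule used no measured signal. It kept 758 of 3421 peaks, or 22.2% (exact 95% interval 20.8 to 23.6%). The remaining summits lay within 500 bp of a TSS (1605 summits), over 500 bp and up to 2 kb away (793), beyond 2 kb in intergenic sequence (239) or beyond 2 kb in an exon (26).

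The embryos were whole organisms aged 0 to 16 h from a transgenic line that stably expresses salm with GFP at its C-terminal end. The tagged protein was precipitated through GFP with an anti-GFP antibody. Chromatin had been sonicated to 200 to 800 bp. Both biological replicates belonged to 1 group, so no conditions could be compared. Values are averages over all tissues and over many stages of the embryo, the control was not analysed here, and the labels do not say how much salm sequence the transgene carries.

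Salm belongs to the spalt family of zinc-finger proteins, which control transcription. In the fly embryo it is known for patterning the head and tail and for its roles in tracheal cells, oenocytes and sensory organs. Long introns of developmental genes are known to hold enhancers, stretches of DNA that bind transcription factors and control a gene from a distance. A ChIP-seq peak far from a start site shows where a protein or its partners lay on DNA, but not which gene, if any, the site controls.

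The sequences within 50 bp of 8 summits are shown in dm6 coordinates on the plus strand, since base composition and short words are the measures that set these summits apart from their flanks. They are 6 of the 10 strongest members, a strong member with a forkhead word, and the member in salm itself. For Gug the window 300 bp to the lower-coordinate side is printed as well, since each summit was compared with that flank. Each run reads 5′ to 3′. Capitals mark every match, on either strand, to a listed word whose frequency differed between summit and flank. These are AATATT, known from mammalian SALL4, the word GATAAG of the GATA family, the forkhead word TGTTTAC, the GAGA factor word GAGAG and the repeat CACACA.
Gug summit, chr3L:8458273-8458373: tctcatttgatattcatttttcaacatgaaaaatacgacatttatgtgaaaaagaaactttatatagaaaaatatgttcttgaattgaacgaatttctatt
Gug flank, chr3L:8457973-8458073: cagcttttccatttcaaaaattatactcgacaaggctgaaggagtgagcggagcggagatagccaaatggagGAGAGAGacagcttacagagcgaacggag
Tlk summit, chrX:3742160-3742260: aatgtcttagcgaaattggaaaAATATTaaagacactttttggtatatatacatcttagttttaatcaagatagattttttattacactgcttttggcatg
trx summit, chr3R:14283829-14283929: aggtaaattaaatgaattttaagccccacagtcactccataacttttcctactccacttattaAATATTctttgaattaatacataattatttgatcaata
Raf summit, chrX:2297659-2297759: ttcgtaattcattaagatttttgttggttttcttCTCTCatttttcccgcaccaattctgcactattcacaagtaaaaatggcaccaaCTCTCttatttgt
Kdm2 summit, chr3R:9057522-9057622: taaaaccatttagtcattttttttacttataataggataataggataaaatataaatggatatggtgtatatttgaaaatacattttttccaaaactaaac
tara summit, chr3R:16236939-16237039: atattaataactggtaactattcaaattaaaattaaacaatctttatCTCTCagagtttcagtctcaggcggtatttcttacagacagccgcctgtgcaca
S summit, chr2L:1072355-1072455: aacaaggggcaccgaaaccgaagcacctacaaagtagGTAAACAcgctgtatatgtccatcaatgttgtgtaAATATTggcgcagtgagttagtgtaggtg
salm summit, chr2L:11441143-11441243: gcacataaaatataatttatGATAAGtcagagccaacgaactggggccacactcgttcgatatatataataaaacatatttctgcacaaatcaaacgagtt

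The Gug pair shows a summit with less G and C than its flank, as 575 of the 758 members had. Its summit window held 21.8% G and C and no capital letters, while its flank held 48.5% and a run of GAGAG. The Kdm2 window, at 19.8% G and C, held still fewer, whereas the window in S held 44.6%, more G and C than the members' mean. S carried both the forkhead word TGTTTAC, read on the opposite strand, and AATATT.

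The 20 strongest members had signals from 589 to 1927. Peak signal is the strength value of the authors' peak caller, which has no physical unit and is comparable only within a list. Ranks count down from 1 for the strongest peak of a list. The strongest member, in introns of the overlapping genes CG45088 and CG6191 on arm 2R (13584063 to 13585063), had a signal of 1927 and rank 6 of the thresholded list, with rank 5 in replicate 1 and rank 9 in replicate 2. A second summit 208 bp away, with a signal of 234, belonged to the same 1001 bp interval, so the 758 members stood for 757 intervals. The window at the summit of the strongest member, not printed above, held 44.6% G and C and none of the words marked there. CG12769 on 2R followed with 1297 (rank 30).

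Gug encodes Grunge, the fly Atrophin, a transcriptional corepressor. Its member at chr3L:8458168-8458500 had a signal of 1213 (rank 37), with 762 in replicate 1 and 447 in replicate 2 on each replicate's own scale. The summit lay 7675 bp downstream of a start site of Gug. Tlk encodes the Tousled-like kinase, which acts on chromatin assembly factors. Its strongest member at chrX:3742050-3742395 reached 1113 (rank 51), with ranks 46 and 57 in the replicates, and lay 2313 bp from a Tlk start site. Both replicates thus placed these peaks near the top of their lists.

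The next members by signal followed. In sbb (scribbler or brakeless), which encodes a nuclear corepressor, the strongest member had a signal of 1077 and lay 20110 bp from the nearest start site, also of sbb. A member of 1064 lay in an intron shared by the annotations of Hr3, CG46321 and CG12912, with the nearest start site, 7891 bp away, belonging to Hr3, a nuclear receptor of the ecdysone response. In trx, the trithorax histone methyltransferase gene, a first intron held a member of 1004 at chr3R:14283689-14284045. Kdm2, which encodes a histone demethylase, held members of 906 and 447.

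The rest of the 20 strongest members lay in genes of varied function. Raf, the kinase below receptor tyrosine kinases, had one of 907 at chrX:2297563-2297854. tara (taranis), a transcriptional cofactor gene, reached 774 and Hr4, a nuclear receptor gene, 753. simj, which encodes a subunit of the NuRD remodelling complex, held members of 719 and 674, and JIL-1, a histone H3 kinase gene, 671. aos (argos, a secreted antagonist of the EGF receptor) held 658, sim (single-minded, the regulator of the ventral midline) 596 and mam (mastermind, the Notch coactivator) 589. CG32486, CG1677 and CG13894 completed the 20 with signals between 632 and 662.

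The intron of salm itself held 1 member at chr2L:11440998-11441387, in the first of 3 introns and 4421 bp downstream of the salm start site. Its signal was 214, rank 1599 of the list, with ranks 1519 and 2055 in the replicates. It therefore lay above the members' median but far below the strongest members. It is printed above for its GATAAG word.

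As a group the distal intronic peaks were of moderate strength. Their signals ran from 141 to 1927 with a median of 193.6 and quartiles of 162 and 264. Distal intergenic peaks had a median of 193.5, peaks 500 bp to 2 kb from a TSS 210.2 and peaks within 500 bp 214. The spread within each class was far wider than the gap between medians. The upper end differed more: 8.71% of members (66) were among the 500 strongest peaks of the list, against 8.37% of intergenic summits, 13.5% of those 500 bp to 2 kb away and 19.0% of those within 500 bp. Peaks are not replicates of a condition, so these are descriptions with no test.

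**Figure D1:**
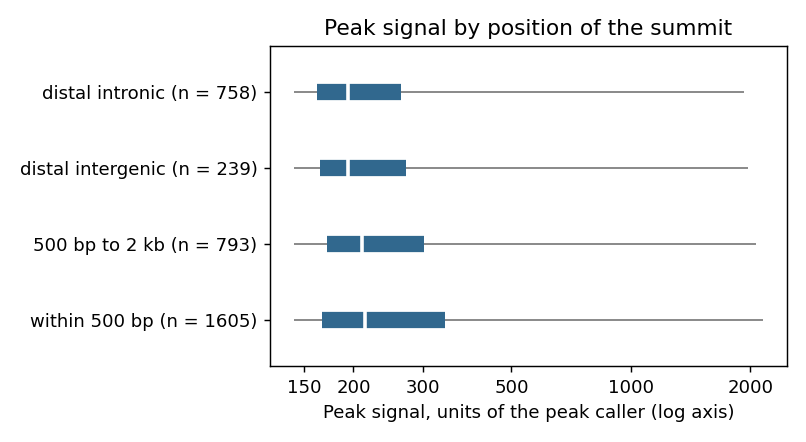
Peak signal on a log axis for the thresholded summits by position; thin lines span lowest to highest, thick bars the quartiles, and white ticks the medians. The medians of the 758 distal intronic and 239 intergenic summits coincide near 194, and the bar for summits within 500 bp of a TSS reaches further up.

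The share of distal intronic summits was higher toward the weaker end of the list. It was 14.6% (12.04 to 17.5%) in the strongest 20% of thresholded peaks and 25.7% (22.5 to 29.2%) in the weakest 20%. Among the 26579 pooled peaks that did not enter the thresholded list, 8166 (30.7%, 30.2 to 31.3%) met the same rule. Of the 20 strongest peaks 1 was a member, and of the 100 strongest 9 were.

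Nearly all members were found in both replicates, which the list's construction from both replicates favours. A peak of each replicate list covered 754 of 758 summits (99.5%, 98.7 to 99.9%), a replicate 1 peak alone covered 1 and a replicate 2 peak alone covered 3. Peaks of both replicates also covered 237 of 239 intergenic summits, 784 of 793 at 500 bp to 2 kb and 1578 of 1605 within 500 bp. Each replicate list holds 30000 peaks, so presence is a mild demand. Ranks are stricter: 531 members (70.1%) were among the 3421 strongest peaks of both replicate lists. That share was near those of the other classes, at 71.5% for intergenic, 75.7% for 500 bp to 2 kb and 72.5% for summits within 500 bp. Across the 754 members the Spearman correlation of replicate signals was 0.649, beside 0.622 for intergenic, 0.709 for 500 bp to 2 kb and 0.749 for summits within 500 bp of a TSS. Points in these correlations share the 2 libraries.

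**Figure D2:**
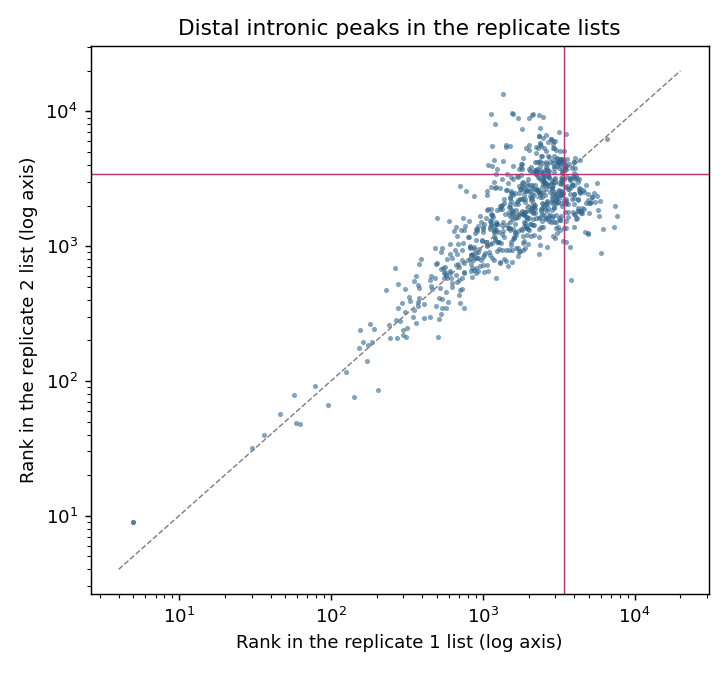
Rank of each of 754 distal intronic peaks in the replicate 1 list (horizontal) and the replicate 2 list (vertical), both on log axes, with equal ranks dashed and rank 3421 as solid lines. Strong members lie along the diagonal, and the scatter widens among weak members, up to rank 13474 in replicate 2.

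The members that differed most in rank between replicates all lay below the members' median signal of 193.6. A member in crp, a helix-loop-helix factor gene, ranked 1367 in replicate 1 and 13474 in replicate 2. Those in nmo (nemo, a kinase; ranks 1549 and 9724) and elB (elbow B, a zinc-finger protein; 1129 and 9544) differed the same way. Members in Vha16-1 (7612 and 1678), CG32645 (7274 and 1395) and Tet (7435 and 1984) ranked better in replicate 2. The thresholded signals of these 6 lay between 146 and 187.

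Most members lay some kilobases from a start site. The median distance to the nearest TSS was 5217.5 bp, with quartiles of 3392 and 8851 bp and a highest value of 47652 bp. The 3 members nearest above the 2 kb limit were in Abd-B (2015 bp, signal 235), neb (2029 bp, 155) and CG13101 (2031 bp, 189). The 3 intronic summits just below it were in hiw (1996 bp, 257), lncRNA:CR44320 (1995 bp, 266) and Sarm (1986 bp, 142). Signals on both sides of the limit overlapped. The farthest members were in hth at 47652 bp (signal 148) and 47324 bp (239) and in mamo at 42276 bp (301).

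Density was lower farther from start sites. Eligible sequence, meaning all bases over 2 kb from a TSS, in a transcript and in no exon, came to 41.4 Mb or 30.9% of the genome, and it held 18.3 members per Mb. Between 2 and 3 kb from a TSS there were 26.2 members per Mb (140 members), between 3 and 5 kb 28.5 (222), between 5 and 10 kb 21.6 (239), between 10 and 20 kb 14.1 (121) and beyond 20 kb 4.16 (36). The annotated transposon share of eligible bases moved with distance as well, from 4.83% at 2 to 3 kb to 11.5% beyond 20 kb, and its part in the lower density was not tested. No member lay in an annotated transposon insertion (0 of 758, upper limit 0.485%), although 8.33% of eligible bases did, and the filters applied to repeats before deposit are not known here. Median signal showed no steady trend, at 208, 195, 190, 180 and 204 from the nearest bin to the farthest.

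**Figure D3:**
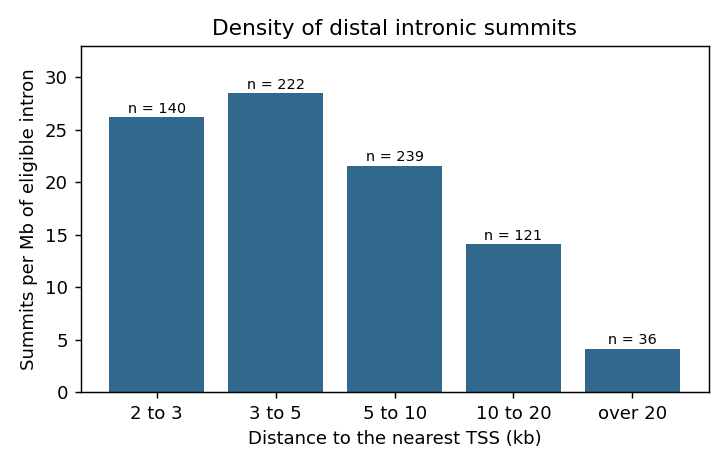
Distal intronic summits per Mb of eligible intron sequence by distance to the nearest TSS in kb, with the number of summits on each bar. Density is 28.5 per Mb at 3 to 5 kb and 4.16 beyond 20 kb.

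Within genes, first introns held more members than their share of eligible bases. A first intron of some transcript held 476 members (62.8%, 59.2 to 66.2%), while such introns made up 37.6% of eligible bases. These bases were not matched for distance to a TSS, and the part of distance in this excess was not tested. By the intron of the transcript assigned to each member, 341 lay in intron 1, 243 in intron 2, 76 in intron 3, 37 in intron 4, 35 in intron 5 and 26 further on. The introns were long, with a median of 16820 bp. Members were spread along them, with a median position of 48.8% and quartiles of 26.6 and 73.0%. The median distance to an exon edge was 2863 bp and the lowest 9 bp.

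The nearest start site belonged to a gene hosting the summit in 544 members (71.8%, 68.4 to 74.9%), against 51.7% of eligible bases. This share was not matched for distance to a TSS either. For the other 214 members the nearest start site was another gene's, in 95 cases a noncoding gene's. The member of 552 in Dad, for example, lay 10241 bp from a Dad start site and 7537 bp from that of Ns1. The stronger member in N lay 27674 bp from an N start site and 10596 bp from that of CG18508.

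Arm by arm, density ranged from 15.4 members per Mb of eligible sequence on 3R to 22.9 on 2L, with 17.7 on 2R, 19.0 on X and 19.5 on 3L. Chromosome 4 had 0 members in its 0.445 Mb of eligible sequence.

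In all, 448 genes held a member, 436 of them protein-coding. Of these, 271 held 1 member, 96 held 2, 37 held 3, 18 held 4 and 26 held 5 or more, and 318 of the 758 members lay in genes with at least 3. Another thresholded summit of any class lay within 5 kb of 414 members (54.6%) and within 1 kb of 97 (12.8%). The same shares were not computed for other classes, so they have no background here. Peaks overlapped in 8 pairs of neighbouring members.

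Nuclear receptor genes held the largest clusters. Eip75B, an ecdysone-induced receptor gene, held 9 members along 113744 bp, none above a signal of 289. ftz-f1, whose product is a nuclear receptor partner of the pair-rule protein Ftz, held 9 in a gene of 50703 bp, and its strongest was 223. The overlapping gene lncRNA:CR45939 held 6 members. The strongest Eip75B member ranked 941 of the list and the strongest in ftz-f1 1477. sbb with 8 members and Raf with 8 each held a member above 900.

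In Raf the 8 members lay in the second intron, of 43637 bp, between 2243 and 11066 bp downstream of its start site. Their signals were 907, 533, 329, 325, 220, 166, 147 and 146. The 2 strongest had replicate ranks of 96 and 66, and of 297 and 238. In sbb the 8 members lay in the second intron of the assigned transcript, with signals of 1077, 482, 367, 333, 313, 286, 186 and 186. The strongest was also the strongest in both replicates, at ranks 59 and 49. It lay in a first intron of another sbb transcript as well. In both genes a single summit stood out from a series of weaker ones.

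Tet, a gene for a DNA-modifying dioxygenase family member, held 7 members (strongest 434) and px (plexus, a nuclear protein of wing vein patterning) held 7 (263). Genes with 6 members included Hr4, kirre, rdx (roadkill, a ubiquitin ligase adaptor of Hedgehog signalling), ush (u-shaped, a cofactor of GATA factors), cic (capicua, an HMG-box repressor below receptor kinases) and hth (homothorax, a homeodomain cofactor of Hox proteins). px, ush, cic and rdx were named after their counts were seen.

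Counts by gene need to be read against how much eligible intron a gene has. Of 2376 protein-coding genes with at least 1 kb of eligible sequence, 432 held a member (18.2%). That share was 4.55% in the 594 genes with the least eligible sequence, then 12.3%, 22.7% and 33.2% in the 594 with the most. Members per Mb were 27.2, 32.1, 27.3 and 15.1 in the same order, and the last group starts at 19.2 kb. Genes of 9 functional lists, chosen with earlier results of these data known, were counted beside this background. Some genes, such as Eip74EF and how, were in more than 1 list, so the lists are not independent. In each of the 9 lists the median eligible length, from 11.3 to 29.96 kb, was above the 7.09 kb of all coding genes with eligible sequence. Outside the neuronal lists these medians fell in the third of the groups above, where 22.7% of genes held a member. No test was made over the lists.

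Signalling pathway genes held members more often than that background. Of 39 Dpp, Wingless, Hedgehog, Notch and JAK-STAT pathway genes with eligible sequence, 19 held a member (48.7%), at 64.4 members per Mb, against 18.6 per Mb over all such coding genes. Their median eligible length of 14.5 kb was also above the 7.09 kb of all genes. Coding genes with 7.09 to 19.2 kb of eligible sequence held members in 22.7% of cases, at 27.3 per Mb. The pathway holders included mam with 5 members and Dad, which encodes an inhibitory Smad of the Dpp pathway (552). N, the Notch receptor gene (487 and 188), and ptc, the Hedgehog receptor gene (470), were others. The ptc member had a signal of 341 in replicate 1 (rank 263) and 132 in replicate 2 (rank 688).

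Receptor tyrosine kinase pathway genes held members in 12 of 31 cases (38.7%), at 42.8 per Mb. Besides Raf and aos they included S (Star, needed for export of the EGF receptor ligand Spitz) with members of 545 and 391. bnl (branchless), the FGF ligand gene of tracheal branching, held 1 of 492, with replicate ranks of 294 and 382. An FGF ligand, a kinase of receptor signalling and an EGF receptor antagonist were thus all among the holders.

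Transcription factor genes varied by family. Nuclear receptor and ecdysone genes held members in 6 of 17 cases (35.3%) but at 63.7 per Mb, since Eip75B, ftz-f1 and Hr4 held 24 of 30 members. Eip74EF, an ecdysone-induced Ets factor gene, held 3, the strongest at 405. Zinc-finger and other developmental transcription factor genes held members in 24 of 65 cases (36.9%, 44.7 per Mb), among them sim and grh (grainyhead, an epidermal factor; 414).

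Homeodomain and Hox genes stood close to the background share, with 9 of 46 holding a member (19.6%, 27.5 per Mb). Antp, the Hox gene of the thorax, held 5 with signals of 329, 281, 220, 159 and 145, all in its first intron. The overlapping coding gene CG46458 held 5 members as well, with the same strongest one. hth held 6, spread over 5 introns of a gene of 132008 bp, the strongest at 288. Abd-B (235) and lab (214), the Hox genes of the posterior abdomen and the head, held 1 each. The Abd-B member ranked 3796 in replicate 1 and 560 in replicate 2.

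The 2 neuronal lists held fewer members per Mb than all coding genes. They also held fewer than the 15.1 per Mb of coding genes with at least 19.2 kb of eligible sequence. Ion channel and synapse genes held members in 4 of 46 cases (8.70%), at 2.64 per Mb. Their median eligible length was 20.4 kb, against 7.09 kb for all genes. The 4 were dnc, a cAMP phosphodiesterase gene (309), pum, a translational repressor gene (209), rg (189) and Shal, a potassium channel gene (186). Axon guidance and neuronal surface genes held members in 13 of 72 cases (18.1%), near the background share of 18.2%, at 9.63 per Mb and with a median eligible length of 29.96 kb. They included fra, the netrin receptor gene (449), Sema1a (417), kirre, a cell adhesion gene of myoblast fusion (416), and caps (326).

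Cytoskeleton, adhesion and muscle genes held members in 18 of 58 cases (31.0%, 23.8 per Mb), led by Myo10A (378), how, an RNA-binding regulator of muscle (289), the integrin gene mew (270) and the kinase gene Abl (251). RNA-binding and chromatin genes did so in 16 of 34 cases (47.1%), led by trx, shep (376) and Rbfox1 (313). Their density of 15.9 per Mb was also below the 18.6 per Mb of all coding genes. In each of the 9 lists the number of holders stayed within 1.5 times this count when the list was rebuilt from either replicate alone. Median signals per list lay between 190.0 and 213 against 194 over all coding hosts, so the lists differed in how often members occurred and little in their strength.

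**Figure D4:**
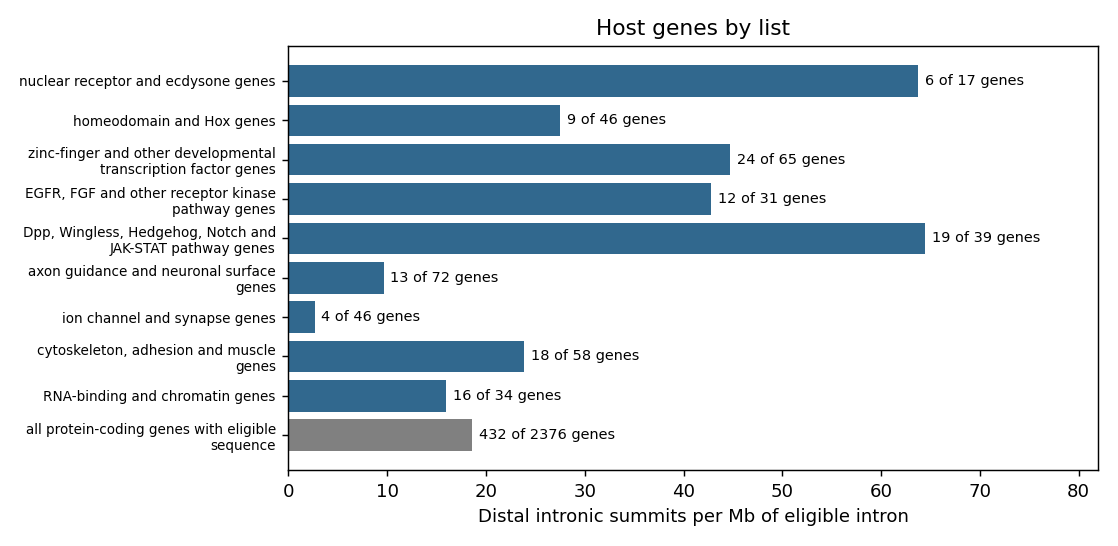
Distal intronic summits per Mb of eligible intron for 9 gene lists (blue) and for all protein-coding genes with eligible sequence (grey), with the number of genes holding a summit beside each bar. The pathway list with 19 of 39 genes and the nuclear receptor list with 6 of 17 reach above 60 per Mb, and the ion channel and synapse list with 4 of 46 stays below 3 per Mb.

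The sequence at member summits was rich in A and T. Within 50 bp of the summit G and C made up 33.1 ± 8.25% (SD over 758 members), against 43.3 ± 9.28% in the flank window 300 bp to the lower side. The paired difference averaged -10.2 percentage points (SD 13.5). G and C content was lower at the summit in 575 members, higher in 173 and equal in 10 (exact two-sided sign test over regions, p = 3.2e-51). P-values over regions treat regions as units and do not measure the spread between the replicates.

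The dip was narrow. Mean G and C content in bins of 50 bp was 32.3% at the summit, 43.4% at 200 bp on either side and close to 40% at 1000 bp, near the 40.3% mean of windows taken through eligible sequence. Summits in other places showed a dip of like depth, with means within 50 bp of 32.8% for intergenic summits and 33.8% for those within 500 bp of a TSS. The difference between these classes was not tested. Among members, G and C content was 32.0 ± 7.64% in the strongest 20% and 35.1 ± 8.53% in the weakest (SD, n = 152 and n = 151).

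**Figure D5:**
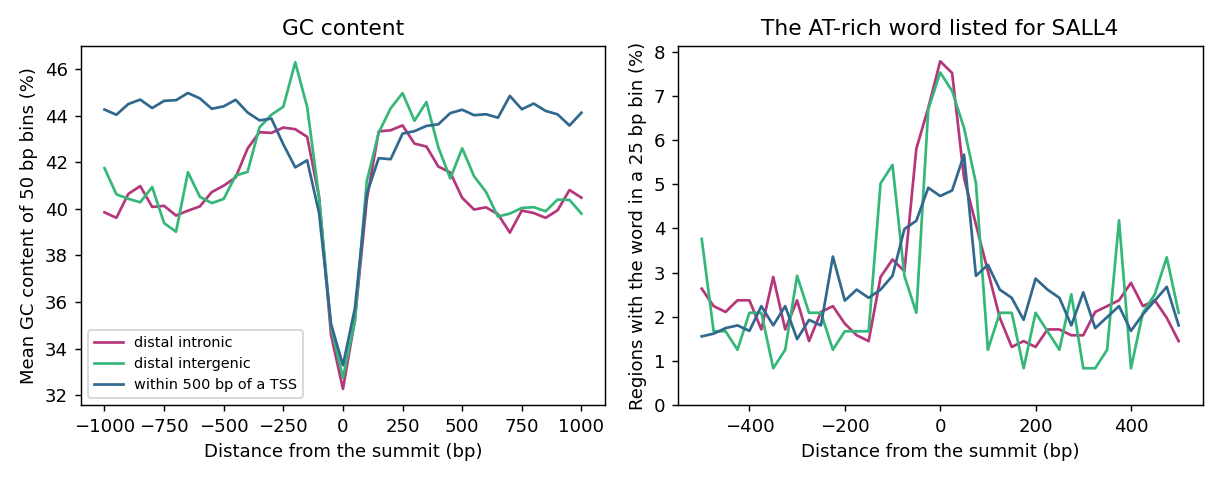
Left, mean G and C content in bins of 50 bp around the summit; right, percentage of regions with AATATT in bins of 25 bp, for distal intronic, distal intergenic and TSS-near summits. The distal intronic line dips to 32.3% G and C and peaks at 7.78% of regions with the word at the summit.

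Words of 6 bases repeated this contrast. Each possible word, counted together with its reverse complement, was compared between summit and flank by the exact McNemar test with Benjamini-Hochberg adjustment at 0.05. Of these words, 211 (10.1%) were in more summits than flanks, and 250 (12%) in fewer. All 211 had at most 2 G or C, and 247 of the 250 had at least 3. Of the 36 words made of A and T alone, 32 were called higher.

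Not all words of A and T behaved alike. TAAATA had the lowest p and was in 252 summit windows and 102 flanks. ATATTA showed the greatest ratio among the A and T words, with 152 summits against 43 flanks, and AATATT, a word bound by the mammalian relative SALL4, ranked 3 by ratio with 183 against 59. TAATTA, the core of many homeodomain sites, was in 74 and 55, and AAAAAA in 201 and 172. In this setting neither passed the test, nor did ATTAAT and AATTAA. As a listed motif TAATTA was called higher than the flank in some alternatives, given at the end. Frequencies of words and base composition moved together here, and the part of composition in single words was not tested.

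AATATT was also compared between members and eligible windows within bins of G and C content. The bins are wide, above all those under 25% and at 40% or more, so composition was not equal within them. In windows under 25% G and C it was in 43.0% of members (34.5 to 51.8%) and 30.9% of eligible windows. The shares were 25.9 and 20.1% at 25 to 30%, 22.8 and 14.0% at 30 to 35%, 20.7 and 9.72% at 35 to 40%, and 10% (5.71 to 16.0%) and 3.97% at 40% or more. The 5 bins pointed the same way, with the interval of the members including the eligible share only in the bin from 25 to 30% (19.3 to 33.5%). The word was in 30.3% of the strongest 20% of members (23.1 to 38.2%) and 17.2% of the weakest (11.6 to 24.2%).

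A set of 20 listed motifs, searched on both strands within 50 bp of the summit, gave 3 motifs in more summits than flanks (15% of those tested) and 2 in fewer (10%). AATATT was in 24.1% of members and 7.78% of flanks (adjusted p = 1.9e-16, exact McNemar test) and in 9.42% of 41368 windows spaced through eligible sequence. TGTTTAC, a forkhead word, was in 5.94% against 2.64% (adjusted p = 0.0075, same exact test), with 2.04% of eligible windows. GATAAG, a word of GATA factors, was in 8.71% against 4.62% (adjusted p = 0.0075, same exact test), with 4.06% of eligible windows. A match describes letters in a window and does not show that a factor binds there.

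The listed motifs that were rarer at summits than at flanks were simple repeats. GAGAG, a word of GAGA factor, was in 9.37% of summits and 17.0% of flanks (adjusted p = 1.6e-04, exact McNemar test), and in 11.6% of eligible windows. Without replicate 1 the GAGAG difference was -4.88 percentage points against -7.65 with both (adjusted p = 0.017, exact McNemar test). CACACA was in 8.58% against 14.1% (adjusted p = 0.0075, same exact test), with 8.98% of eligible windows. For both, the summit share was near or below the eligible share while the flank exceeded it. By the same exact test the GATAAG call was lost without replicate 2 (adjusted p = 0.0716), as was that of CACACA (0.0716), and GATAAG was not called in the stronger 50% of the list (0.752). With the flank at 1000 bp neither GAGAG (0.163, exact test) nor CACACA (0.682) was called.

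Members and distal intergenic summits did not differ by any listed motif after adjustment. Fisher's exact test called 0 motifs higher (0% of 20) and 0 lower (0%). At an unadjusted p under 0.05 there were 2, both higher in members: TGTTTAC at 5.94 against 2.09% and TTCNNNGAA, a word of Stat92E, at 4.35 against 0.837%. With 239 intergenic summits, shares of a few percent rest on few regions, so small differences were not detectable.

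Members differed from summits within 500 bp of a TSS in 5 listed motifs. Fisher's exact test called 3 motifs lower (15%) and 2 higher (10%). CCGGAA, an Ets word, was in 0.396% of members and 4.05% of TSS summits (adjusted p = 4.1e-07, Fisher's exact test). GGTCACAC, a word of M1BP, a factor of paused promoters, was in 0 of 758 members (upper limit 0.485%) and 1.81% of TSS summits (adjusted p = 2.1e-04, same exact test). ATCGATA, shared by the DRE factor and BEAF-32, was in 1.06 against 3.80% (adjusted p = 5.5e-04, same exact test). Eligible windows held these 3 words in 2.47, 0.128 and 1.08% of cases.

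AATATT was more frequent in members than at TSS summits, at 24.1 against 17.1% (adjusted p = 4.8e-04, Fisher's exact test). Mean G and C content was 33.1 and 33.8%. The 2 sets were not matched by composition, and its part in the AATATT difference was not tested. Without replicate 1 the AATATT difference was 4.64 percentage points against 7.07 with both (adjusted p = 0.048, Fisher's exact test). TTCNNNGAA was in 4.35% of members and 2.31% of TSS summits (adjusted p = 0.035, same exact test), a call that was lost when either replicate was left out (adjusted p = 0.107 without replicate 1 and 0.0523 without replicate 2). Eligible windows held TTCNNNGAA in 3.24% of cases, between both values.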

How the data were processed

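ChIP-seq peaks came from 1 group of 2 biological replicates. The authors' peak lists, per the deposited descriptions, come from each replicate and from both pooled, each against a control, and were thresholded by the irreproducible discovery rate, a filter on rank agreement between replicates. Coordinates are dm6, per the labels. The deposited signal of a peak is the caller's strength value. The deposited −log10 q-value was at its ceiling of 4.08 in all 758 members and was not used. Columns of other kinds, such as the summit offset, were used as the authors deposited them. The sources used here do not name the aligner, the caller or the threshold. Read totals are unknown, so no depth can be given, and intervals are exact (Clopper-Pearson) 95% intervals covering counting error over peaks only.

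Genes came from Ensembl release 115 (FlyBase 6.54), with transposable-element entries left out of transcripts and start sites, and sequence from Release 6 of the genome. A summit was matched to a replicate when inside one of its peaks. A host gene's members per Mb counted a summit once for each host. Words were compared with exact McNemar tests, base content with an exact sign test and summit classes with Fisher's exact test, two-sided, with Benjamini-Hochberg adjustment at 0.05. Of the list symbols 15 were matched through synonyms and 6 were unmatched. The members and lists were chosen with earlier results of these data known. Genes are named by rule: hosts of the 20 strongest members, the 5 genes with most members, salm, up to 4 holders per list with the strongest member, 3 members or intronic summits on each side of the limit, the 3 farthest, and the 3 with the greatest rank difference each way. px, ush, cic and rdx, genes owning the start site nearest to a named member, and genes overlapping Antp or ftz-f1 were named outside it. Word counting and the word test were tried on simulated sequences with equal base composition in both sets of windows, unlike the data. Other steps were not simulated. Software was Python 3.11.15 with pandas 2.3.3, numpy 2.4.6, matplotlib 3.10.9 and scipy 1.17.1. Alternatives were the stronger 50% of the list, each replicate alone, other distance limits, coding transcripts only, peak middles, isolated summits, and other windows and flanks.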

Additional observations from a re-analysis of the deposited data

How the results depend on the processing

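Over the alternatives, the G and C difference kept its sign and its call, between -12.1 and -6.61 percentage points. A limit of 5000 bp left 396 members (11.6% of the list), with 57.3% in a first intron and 66.2% nearest to a host start site, 166 words called and 2 motifs lower than at TSS summits. A limit of 1000 bp gave 31.0% of the list, 68.6% and 75.2%. The stronger 50% of the list gave 335 members (19.6%), a median signal of 283.5 and 210 words called. Leaving out members near a stronger summit gave 20.6%. The host share was 79.6% with coding transcripts only and 63.9% with transposable elements counted as transcripts, an alternative chosen after seeing the data, as was recounting the gene lists from single replicates. A flank at 1000 bp called 171 words and 3 motifs. Motif calls against flanks numbered 3 to 6 when either replicate was left out. TAATTA, not called in the main setting (adjusted p = 0.294, exact McNemar test), was called higher than the flank in some alternatives. These were within 100 bp of the summit (0.0221), the flank on the higher side (0.0177), the 1000 bp limit (0.0119) and coding transcripts only (0.0422). Within 100 bp of the summit, 1 motif differed from intergenic and 10 from TSS summits. The former was TGTTTAC, higher in members by 6.26 percentage points (adjusted p = 0.040, Fisher's exact test). Against TSS summits TGTTTAC was not called in the main setting (0.115, same exact test). It was called there in the stronger 50% of the list (0.0342), without replicate 2 (0.0181) and within 100 bp (0.0412). The GATAAG call was lost in the stronger 50% of the list, with the flanks at 1000 bp and on the higher side, and without replicate 2 (adjusted p from 0.0503 to 0.752), and CACACA without replicate 2, within 100 bp of the summit and with the flank at 1000 bp (0.0716 to 0.682). At the 5000 bp limit, with 396 members, the calls of AATATT (5.66 percentage points against 7.07) and ATCGATA (-2.54 against -2.75) over TSS summits were lost (adjusted p = 0.0546 each, Fisher's exact test), as was that of GGTCACAC in the stronger 50% (0.385). The causes were not tested. Lists from a single replicate shared 82.5 and 86.5% of members. Their median signal is on another scale and was not compared. The 390 bp width of 61.5% of members, with the summit at the middle in 62.4%, limits how finely a summit places binding. No paired analysis was possible because there is 1 group.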
